A study of Mus musculus with 9 samples.

Results

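A set of 8 genes that PPARs, fatty acids and fasting are known to switch on was followed through 9 bulk RNA-seq libraries of the mouse atrioventricular (AV) node, which slows the heartbeat's impulse on its way from the atria to the ventricles. The genes are Angptl4, Pdk4, Cpt1a, Ucp2, Ucp3, Acot1, Acot2 and Plin2. They were taken by symbol from the table of 34198 gene symbols, all 8 were found, and all 8 were among the 12925 genes with enough signal to be tested. The rule is a list of symbols that names no threshold, and it was written with earlier results of these data known.

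The libraries came from nodes cut out by microdissection, 3 per group, all from C57BL/6J mice. The macrophage-depleted group (libraries 7, 8 and 9) carried Cd11bDTR, a transgene that puts the diphtheria toxin receptor on cells using the CD11b promoter so that toxin can remove them. Monocytes and neutrophils carry CD11b as well. The Cx3cr1 Cx43-/- group (libraries 4, 5 and 6) lacked connexin 43, encoded by Gja1, in cells that use Cx3cr1, a gene of resident macrophages. Control mice gave libraries 1, 2 and 3. The labels name no toxin or inducer treatment for any group, controls included, and give no age, sex, feeding state or hour of collection. The series' design text calls them biological replicates and does not say how many nodes made a library. The p-values measure the spread between these libraries.

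PPAR alpha, delta and gamma are nuclear receptors that fatty acids activate. Paired with a retinoid X receptor (RXR), they bind repeats of the letters AGGTCA and raise genes for taking up, storing and burning fat. In fasting, glucocorticoids and FOXO factors act on part of the same genes, and in heart muscle the response moves fuel use from glucose towards fatty acids. Hypoxia-inducible factors also raise Angptl4, and genes of all these routes were listed beside the 8.

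The genes fall into 4 roles. Angptl4 is a secreted inhibitor of lipoprotein lipase, and Pdk4 is a kinase that shuts off pyruvate dehydrogenase, so both act on which fuel a cell takes. Plin2 coats lipid droplets. Cpt1a makes the acylcarnitines that carry long-chain fatty acids into mitochondria, while Acot1 in the cytosol and Acot2 in mitochondria release fatty acids from coenzyme A. Ucp2 and Ucp3 are carriers of the mitochondrial inner membrane.

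Promoter sequences are shown for 4 of the genes because the AGGTCA letters are the ones a PPAR with RXR reads, and because the genes' responses differed. They are RefSeq sequences of the GRCm38.p6 build, run 5′ to 3′ on the gene's strand from 250 bases before the start of the transcript to 50 bases after it. Such a sequence was found for 7 of the 8 genes, all but Angptl4. Capitals mark AGGTCA or its reverse complement TGACCT. The Pdk4 window lies at chr6:5496229-5496528 on the minus strand, Plin2 at chr4:86670010-86670309 on the minus strand, Cpt1a at chr19:3323051-3323350 on the plus strand and Ucp3 at chr7:100472741-100473040 on the plus strand.
Pdk4: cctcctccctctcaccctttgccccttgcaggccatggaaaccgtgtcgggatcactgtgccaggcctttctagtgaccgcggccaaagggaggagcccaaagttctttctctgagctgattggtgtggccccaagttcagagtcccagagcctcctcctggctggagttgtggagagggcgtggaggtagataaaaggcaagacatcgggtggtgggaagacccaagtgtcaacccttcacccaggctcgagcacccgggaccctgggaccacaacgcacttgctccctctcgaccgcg
Plin2: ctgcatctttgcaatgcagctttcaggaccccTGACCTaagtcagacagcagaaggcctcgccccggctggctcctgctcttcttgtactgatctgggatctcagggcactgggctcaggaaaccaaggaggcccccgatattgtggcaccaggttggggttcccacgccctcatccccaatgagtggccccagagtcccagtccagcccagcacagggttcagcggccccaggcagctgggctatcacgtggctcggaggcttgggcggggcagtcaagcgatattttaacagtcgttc
Cpt1a: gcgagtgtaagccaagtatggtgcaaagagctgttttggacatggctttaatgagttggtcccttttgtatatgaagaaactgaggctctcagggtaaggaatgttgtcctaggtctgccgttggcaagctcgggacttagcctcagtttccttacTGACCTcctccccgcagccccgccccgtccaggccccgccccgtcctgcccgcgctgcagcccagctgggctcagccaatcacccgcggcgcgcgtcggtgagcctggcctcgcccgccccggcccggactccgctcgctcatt
Ucp3: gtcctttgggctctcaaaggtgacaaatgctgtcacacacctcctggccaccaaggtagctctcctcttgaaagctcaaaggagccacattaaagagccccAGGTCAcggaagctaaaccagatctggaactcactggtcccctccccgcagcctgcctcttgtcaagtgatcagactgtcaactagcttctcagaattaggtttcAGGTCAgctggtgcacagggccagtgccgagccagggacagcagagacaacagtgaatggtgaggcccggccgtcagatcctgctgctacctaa

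AGGTCA was searched on both strands and occurred in 3 of the 7 matched promoters. Ucp3 held it 2 times, 149 and 44 bases before the start. Plin2 and Cpt1a held it once each on the other strand, 218 and 94 bases before the start. The same letters occurred in 16.3% of 32851 promoters of this length. The full PPAR site, AGGTCA repeated after 1 base (in 0.0396% of those promoters), the glucocorticoid receptor palindrome, AGAACA and TGTTC 3 bases apart (0.0487%), and the forkhead motif GTAAACA (3.65%) were not among the letters of these 7 windows. The window of Pdk4 held none of the 4 motifs. Only exact letters inside these windows were searched, so sites elsewhere or with a changed letter were not seen, and Angptl4 was not searched.

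Acot1 and Acot2 are neighbours on chromosome 12, and their coding sequences matched at 1178 of 1236 aligned bases (95.3%). The longest run without a mismatch, bases 887 to 1159 of the Acot1 coding sequence and 1010 to 1282 of that of Acot2 in the GENCODE M21 transcripts, is shown because a read inside it cannot be assigned to either gene.
Acot1 and Acot2: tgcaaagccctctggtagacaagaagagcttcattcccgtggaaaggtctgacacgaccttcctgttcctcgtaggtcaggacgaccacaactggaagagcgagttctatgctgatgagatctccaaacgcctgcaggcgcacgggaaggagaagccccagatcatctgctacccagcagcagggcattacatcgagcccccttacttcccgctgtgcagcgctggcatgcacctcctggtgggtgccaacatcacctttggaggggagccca

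Of all 50-base windows of the transcripts, 33.6% of those in Acot1 and 27.7% of those in Acot2 also occurred in another gene, so counts of this pair are uncertain. That share was 4.89% for Plin2, whose windows recurred in the gene Gm12551, and 1.43% for Pdk4. For Angptl4, Cpt1a, Ucp2 and Ucp3, 0 windows recurred. Ucp3 and Ucp2 stand next to each other on chromosome 7 without sharing windows.

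Values are CPM, reads scaled to a fixed total per library. The worth of a read was taken as the largest step that fitted the rounded values. By it, 1 CPM rested on 52.1 to 64.9 reads, depending on the library. Smaller steps fitted too and would give more reads. By the largest step, the 8 genes had between 115 reads (Angptl4 in Cx3cr1 Cx43-/- library 5) and 43557 reads (Pdk4 in macrophage-depleted nodes) in a library. Reads in listed genes made up 44.0%, 37.7% and 28.3% of the total in macrophage-depleted libraries 7, 8 and 9, against 46.8% to 47.9% in Cx3cr1 Cx43-/- and 42.8% to 48.7% in control libraries. Over all tested genes, the median log2 change in macrophage-depleted against control nodes was -0.49 on the deposited scale, -0.18 after setting all libraries to a common total over listed genes and -0.03 with median-of-ratios scaling. The 6 AV node markers (Hcn4, Tbx3, Cacna1g, Cacna1d, Gjc1 and Cntn2) were present in every group, with summed levels of 78.4 to 107 CPM in macrophage-depleted, 287 to 361 CPM in Cx3cr1 Cx43-/- and 324 to 383 CPM in control libraries. All 6 were called lower in macrophage-depleted than in control nodes, where 33.0% of all tested genes were. Other marker sums were also lower than control without overlap. Cardiomyocyte sums were 10912.4 to 19123.4 against 22873.5 to 25884.7 CPM (2 of 6 markers called lower). Endothelial sums were 114 to 182 against 213 to 335 CPM (2 of 4), and fibroblast sums 1075 to 1363 against 1441 to 1619 CPM (0 of 3). Adipocyte, brown fat and mesothelial sums overlapped control. The part of a changed cell makeup in the results was not tested. The sum of 10 resident macrophage markers was 54.4 to 60.7 CPM in macrophage-depleted, 333 to 447 CPM in Cx3cr1 Cx43-/- and 216 to 339 CPM in control libraries. Gja1 stood at 56.8 to 89.9, 179 to 250 and 163 to 246 CPM in the same order of groups. In whole tissue, fewer cells of a type and less RNA per cell cannot be told apart.

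**Figure D1:**
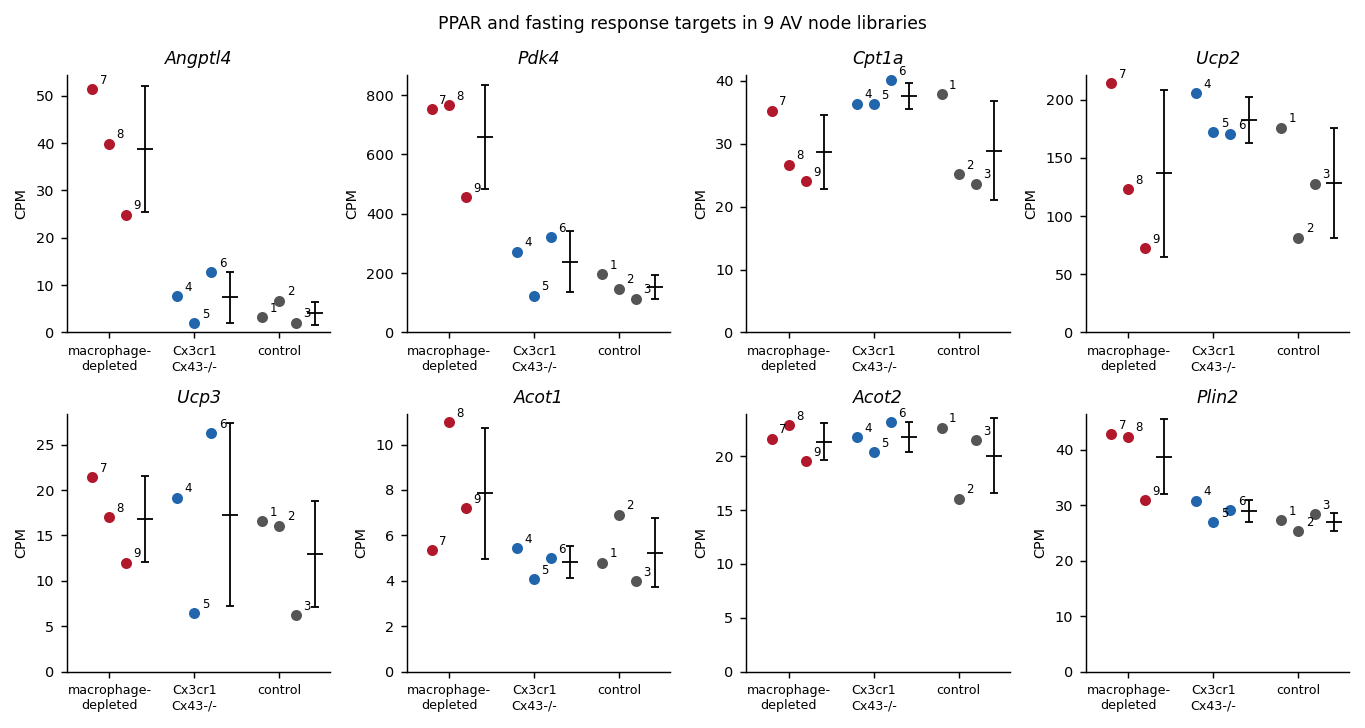
CPM of each gene in each library (points, numbered by library) with the group mean and SD beside them (n = 3), macrophage-depleted, Cx3cr1 Cx43-/- and control from left to right; every vertical axis starts at 0. All 3 macrophage-depleted libraries stood above all 3 control libraries for Angptl4, Pdk4 and Plin2.

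Loss of macrophages was compared with control first. Angptl4 and Pdk4 rose, 9.67-fold and 4.31-fold by mean CPM. The other 6 genes did not pass the test on the deposited scale. Between them they ran from a log2 change of 0.00 for Cpt1a to 0.52 for Acot1. So 2 of 8 genes were called higher and 0 lower, while 3.23% of all tested genes were called higher and 33.0% lower (limma, adjusted p under 0.05). At an unadjusted p under 0.05, limma gave 3 of 8 higher and 0 lower, where 6055 of 12925 tested genes were under it in either direction. At the adjusted threshold, limma with voom weights on reads worked out from the CPM steps also called 2 higher and 0 lower.

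Angptl4 stood at 51.4, 39.9 and 24.8 CPM in macrophage-depleted libraries 7, 8 and 9, at 7.62, 1.95 and 12.7 CPM in Cx3cr1 Cx43-/- libraries 4, 5 and 6, and at 3.25, 6.69 and 2.06 CPM in control libraries 1, 2 and 3. The lowest macrophage-depleted library stood above every library of the other groups, which overlapped each other. Its mean was 38.7 ± 13.3 CPM in macrophage-depleted and 4.0 ± 2.4 CPM in control nodes (SD, n = 3). The log2 change was 3.20, with an SE of 0.44 and a limma adjusted p of 1.28e-05. That change was the 18th highest of the 12925 tested genes, within the top 0.139%.

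Pdk4 stood at 752, 767 and 456 CPM in macrophage-depleted libraries, at 272, 124 and 320 CPM in Cx3cr1 Cx43-/- libraries and at 197, 148 and 114 CPM in control libraries. Macrophage-depleted libraries were again above all others. The means were 658 ± 175 CPM in macrophage-depleted and 153 ± 41.6 CPM in control nodes, and the log2 change of 2.10 (SE 0.29; limma, adjusted p = 1.53e-05) was the 65th highest of all tested genes.

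Plin2, the lipid droplet coat, showed a small shift with little spread. It stood at 42.8, 42.4 and 30.9 CPM in macrophage-depleted libraries, at 30.8, 27.0 and 29.1 CPM in Cx3cr1 Cx43-/- libraries and at 27.3, 25.3 and 28.4 CPM in control libraries. The macrophage-depleted libraries lay above all others, library 9 by less than 1 CPM. The log2 change against control was 0.50 (SE 0.21, limma adjusted p = 0.0642), short of the threshold. Without library 9, with its low share of listed-gene reads, it was 0.65 (limma adjusted p = 0.00613).

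The carnitine transferase and the thioesterases differed less. Cpt1a stood at 35.3, 26.7 and 24.1 CPM in macrophage-depleted libraries, at 36.4, 36.3 and 40.1 CPM in Cx3cr1 Cx43-/- libraries and at 37.9, 25.2 and 23.7 CPM in control libraries. Macrophage-depleted and control nodes covered nearly the same range, and their difference was 0.00 on the log2 scale (SE 0.23, limma adjusted p = 0.996). Acot1 stood at 5.35, 10.99 and 7.21 CPM in macrophage-depleted, at 5.44, 4.08 and 5.0 CPM in Cx3cr1 Cx43-/- and at 4.80, 6.92 and 3.98 CPM in control libraries. The macrophage-depleted libraries overlapped both other groups (log2 change against control 0.52, SE 0.31, limma adjusted p = 0.186). Acot2 kept between 16.1 and 23.2 CPM in all 9 libraries (log2 change 0.10, SE 0.22, limma adjusted p = 0.737).

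The inner-membrane carriers varied widely inside the groups. Ucp2 stood at 214, 123 and 72.4 CPM in macrophage-depleted, at 206, 172 and 170 CPM in Cx3cr1 Cx43-/- and at 176, 81.4 and 128 CPM in control libraries. Its log2 change in macrophage-depleted against control nodes was 0.02 (SE 0.30, limma adjusted p = 0.960). Ucp2 is known to be abundant in macrophages. Its wide ranges in macrophage-depleted and control nodes overlapped while the macrophage marker sums did not, and the part of macrophages in its level was not tested. Ucp3, the form of skeletal muscle and heart, stood at 21.4, 17.0 and 11.98 CPM in macrophage-depleted, at 19.2, 6.47 and 26.3 CPM in Cx3cr1 Cx43-/- and at 16.6, 16.1 and 6.23 CPM in control libraries. All 3 groups overlapped (log2 change against control 0.44, SE 0.39, limma adjusted p = 0.372).

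Counted by separation, 3 of the 8 genes (Angptl4, Pdk4 and Plin2) had all macrophage-depleted libraries above all control libraries and 0 had them all below, where 3.61% and 38.0% of tested genes did. The median log2 change of the 8 genes was 0.47, beside -0.49 for all tested genes.

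How many of the 8 were called higher depended on the scaling. It was 3 with libraries set to a common total, where 8.79% of tested genes were called higher, and the gene added was Plin2 (log2 change 0.83, limma adjusted p = 0.000271). With median-of-ratios scaling it was 6, where 13.1% were called higher. Those were Angptl4 (3.66), Pdk4 (2.59), Plin2 (0.98), Acot1 (0.98), Acot2 (0.58) and Cpt1a (0.49), and not Ucp3 (0.92, limma adjusted p = 0.120) or Ucp2 (0.51, limma adjusted p = 0.105). Set against the median of all genes on the deposited scale, the shifts were 3.68 for Angptl4, 2.59 for Pdk4, 1.0 for Acot1, 0.99 for Plin2, 0.93 for Ucp3, 0.59 for Acot2, 0.51 for Ucp2 and 0.49 for Cpt1a. Angptl4 and Pdk4 were called under all 3 scalings.

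**Figure D2:**
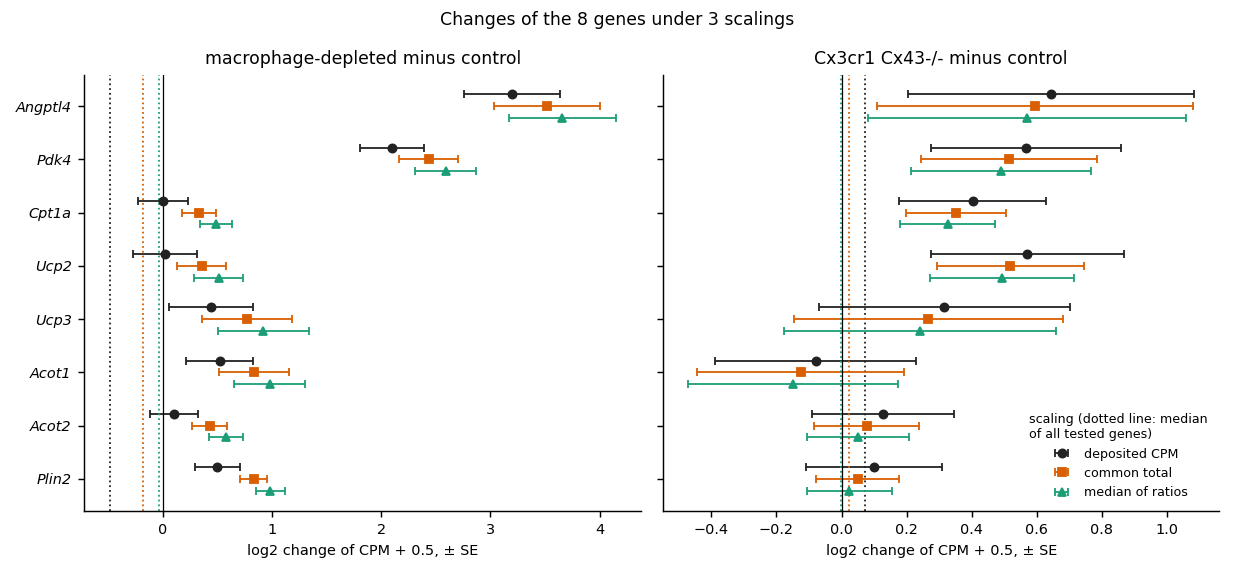
Log2 change (± SE) of each gene in macrophage-depleted minus control (left) and Cx3cr1 Cx43-/- minus control (right) nodes under 3 scalings, with dotted lines at the median of all tested genes. In the left panel the intervals of Angptl4 and Pdk4 lie to the right of 1.5, whichever scaling is used.

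Ratios of CPM of 2 genes inside a library do not depend on its scaling. Log2 ratios and their differences were taken with 0.5 CPM added to each gene, so for low genes they still depend on it somewhat. The 6 pairs were taken in 3 comparisons, 18 exact permutation tests in all, two-sided, and with 3 libraries against 3 the smallest p they allow is 0.1, so none could pass 0.05. Pdk4 was set against Pdk2, the kinase form that the heart keeps at rest. The Pdk4 to Pdk2 ratio of CPM was 9.28, 11.7 and 8.80 in macrophage-depleted, 1.51, 0.677 and 1.80 in Cx3cr1 Cx43-/- and 0.961, 0.932 and 0.671 in control libraries. Macrophage-depleted libraries stood above all others, and control libraries were all below 1. The difference from control was 3.53 on the log2 scale (exact p = 0.1), and Pdk2 itself fell (66.2 ± 14.6 against 178 ± 24.1 CPM, log2 change -1.43, limma adjusted p = 2.11e-05).

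Angptl4 was set against Lpl, the lipase it inhibits. The Angptl4 to Lpl ratio was 0.0356, 0.0260 and 0.0247 in macrophage-depleted, 0.00594, 0.00117 and 0.00758 in Cx3cr1 Cx43-/- and 0.00217, 0.00565 and 0.00154 in control libraries. It differed from control by 3.22 on the log2 scale with no overlap (exact p = 0.1), while Lpl stood at 1328 ± 281 CPM in macrophage-depleted and 1339 ± 157 CPM in control nodes (log2 change -0.03, limma adjusted p = 0.935).

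Plin2 was set against Plin5, the droplet coat of oxidative muscle. The Plin2 to Plin5 ratio was 1.12, 1.28 and 1.22 in macrophage-depleted, 0.804, 0.839 and 0.746 in Cx3cr1 Cx43-/- and 0.716, 0.667 and 0.741 in control libraries. The 3 groups did not overlap, with differences from control of 0.76 in macrophage-depleted and 0.17 in Cx3cr1 Cx43-/- nodes on the log2 scale (exact p = 0.1 each). Plin5 itself stood at 32.2 ± 6.45 CPM in macrophage-depleted and 38.1 ± 0.167 CPM in control nodes. Cpt1a to Cpt1b, the muscle form, differed by 0.98 in macrophage-depleted nodes (exact p = 0.1). Cpt1a hardly differed from control (28.7 ± 5.85 against 28.9 ± 7.83 CPM), while Cpt1b was lower (3.56 ± 1.57 against 7.19 ± 1.81 CPM). Cpt1b counts are uncertain because 93.0% of its windows recur in the read-through gene Gm44502. Acot1 to Acot2 (0.42, exact p = 0.4) and Ucp2 to Ucp3 (-0.42, exact p = 0.6) overlapped.

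**Figure D3:**
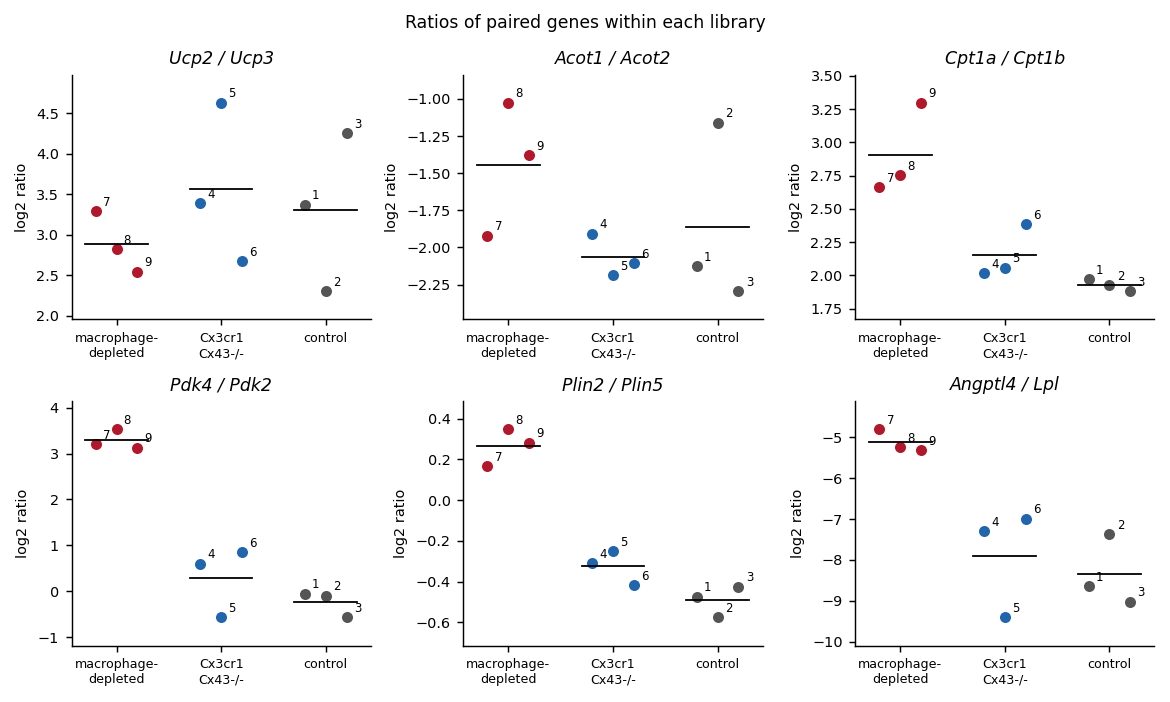
Log2 ratio of 2 genes in each library (points, numbered by library) with the group mean as a line, macrophage-depleted, Cx3cr1 Cx43-/- and control from left to right; each panel has its own axis range. Macrophage-depleted libraries stand above control without overlap for Cpt1a/Cpt1b, Pdk4/Pdk2, Plin2/Plin5 and Angptl4/Lpl, and overlap it for Ucp2/Ucp3 and Acot1/Acot2.

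Deletion of connexin 43 in Cx3cr1-expressing cells was compared with control next. No gene of the 8 passed the test. At an unadjusted p under 0.05 limma also gave 0, where 191 of 12925 tested genes were under it in either direction. Of all tested genes, 0% were called higher and 0.00774% lower. The mean was higher than in control for 7 of the 8 and lower for Acot1, and the libraries of both groups overlapped for all 8. Among all tested genes, 5.94% had all Cx3cr1 Cx43-/- libraries above all control libraries. The nearest to a call by p were Pdk4, at 239 ± 102 CPM in Cx3cr1 Cx43-/- and 153 ± 41.6 CPM in control nodes (log2 change 0.57, SE 0.29, limma unadjusted p = 0.065), and Ucp2, at 183 ± 19.9 against 128 ± 47.2 CPM (0.57, SE 0.30, limma unadjusted p = 0.0655). Angptl4 gave 0.64 (SE 0.44), Cpt1a 0.40 (SE 0.23), Ucp3 0.32 (SE 0.39), Acot2 0.13 (SE 0.22), Plin2 0.10 (SE 0.21) and Acot1 -0.08 (SE 0.31). With libraries set to a common total, Cpt1a (unadjusted p = 0.0363) and Ucp2 (unadjusted p = 0.036) came under 0.05 before limma's adjustment, as they did with median-of-ratios scaling (unadjusted p = 0.0413 and 0.0424).

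The comparison of both models asked whether the rise of Angptl4 and Pdk4 differed between them, without using the control libraries as a term. Angptl4 was 5.20-fold higher in macrophage-depleted than in Cx3cr1 Cx43-/- nodes (log2 change 2.55, SE 0.44, limma adjusted p = 0.000145). Pdk4 was 2.76-fold higher (1.53, SE 0.29, limma adjusted p = 0.000397). These 2 of 8 were called higher and 0 lower, where 2.69% of all tested genes were called higher and 40.7% lower. At an unadjusted p under 0.05 limma also gave 2 and 0, where 6834 of 12925 tested genes were under it in either direction. With a common total 4 of the 8 were called higher (8.47% of tested genes) and with median-of-ratios scaling 5 (13.1%). Angptl4, Pdk4 and Plin2 had all macrophage-depleted libraries above all Cx3cr1 Cx43-/- libraries, as did 3.39% of tested genes. Cpt1a had all macrophage-depleted libraries below all Cx3cr1 Cx43-/- libraries on the deposited scale (log2 change -0.40, limma adjusted p = 0.148), as did 50.6% of tested genes, and its change was 0.16 with median-of-ratios scaling.

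Order of the levels changed between the groups once CPM was divided by the length of each gene's exons. Control nodes ran from Pdk4 (43.5 ± 11.8 CPM per kilobase) over Ucp2 (18.4 ± 6.76), Acot2 (9.14 ± 1.59), Plin2 (7.68 ± 0.446), Ucp3 (4.13 ± 1.86), Cpt1a (3.78 ± 1.02) and Acot1 (1.34 ± 0.387) to Angptl4 (1.13 ± 0.679; SD, n = 3). In that order Acot2 and Plin2, Ucp3 and Cpt1a, and Acot1 and Angptl4 overlapped. Macrophage-depleted nodes ran from Pdk4 (187 ± 49.9 CPM per kilobase) over Ucp2 (19.5 ± 10.3), Plin2 (11.02 ± 1.92), Angptl4 (10.9 ± 3.75), Acot2 (9.73 ± 0.771), Ucp3 (5.36 ± 1.5) and Cpt1a (3.75 ± 0.766) to Acot1 (2.0 ± 0.733). Angptl4, the lowest of the 8 per length in control, stood beside Plin2 in macrophage-depleted nodes. In Cx3cr1 Cx43-/- nodes the first 6 genes had the same order as in control, and Angptl4 (2.10 ± 1.52) stood before Acot1 (1.24 ± 0.177).

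Angptl4, Pdk4 and Ucp3 also moved together between the Cx3cr1 Cx43-/- libraries. The within-group SD on the log2 scale was 0.896 for Angptl4 and 0.771 for Ucp3, in the top 0.936% and 2.59% of tested genes, beside a median of 0.323 over all tested genes. At the other end, Plin2 (0.169) and Acot2 (0.171) were steadier than most. In Cx3cr1 Cx43-/- nodes Angptl4, Pdk4 and Ucp3 were all highest in library 6 and lowest in library 5. That order, with library 4 between, held for 5 of the 8 genes (also Cpt1a and Acot2) and for 8.74% of tested genes. For Cpt1a and Acot2 it rested on small differences. Cpt1a stood at 36.40 and 36.34 CPM in libraries 4 and 5, and Acot2 at 20.4 to 23.2 CPM over the group. The ratio of CPM in library 6 to library 5 was 6.53 for Angptl4, 4.06 for Ucp3 and 2.58 for Pdk4, which ranked 2, 5 and 17 among the 12925 tested genes. Txnip, a FOXO and glucose-responsive gene of the fasting list that is known to restrain glucose uptake, ranked 19 with a ratio of 2.51.

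Library order was the same for some of these genes in the other groups. Angptl4, Pdk4, Cpt1a and Ucp3 each had their lowest value in library 9 of the macrophage-depleted, library 5 of the Cx3cr1 Cx43-/- and library 3 of the control group, as did 3.73% of tested genes. For Cpt1a, library 5 was the lowest of its group by a near tie (36.34 against 36.40 CPM in library 4). This pattern of lowest libraries was picked after the values were seen, and no test was made of it. Summed levels of 8 mesothelial markers, a list also added after seeing values, were 21.1, 7.10 and 20.2 CPM in macrophage-depleted, 19.9, 9.21 and 43.5 CPM in Cx3cr1 Cx43-/- and 45.9, 9.40 and 9.40 CPM in control libraries. They were highest in library 6 and lowest in library 5 of the Cx3cr1 Cx43-/- group too, 0 of the 8 markers were at 0 in any group, and their part in the pattern was not tested.

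**Figure D4:**
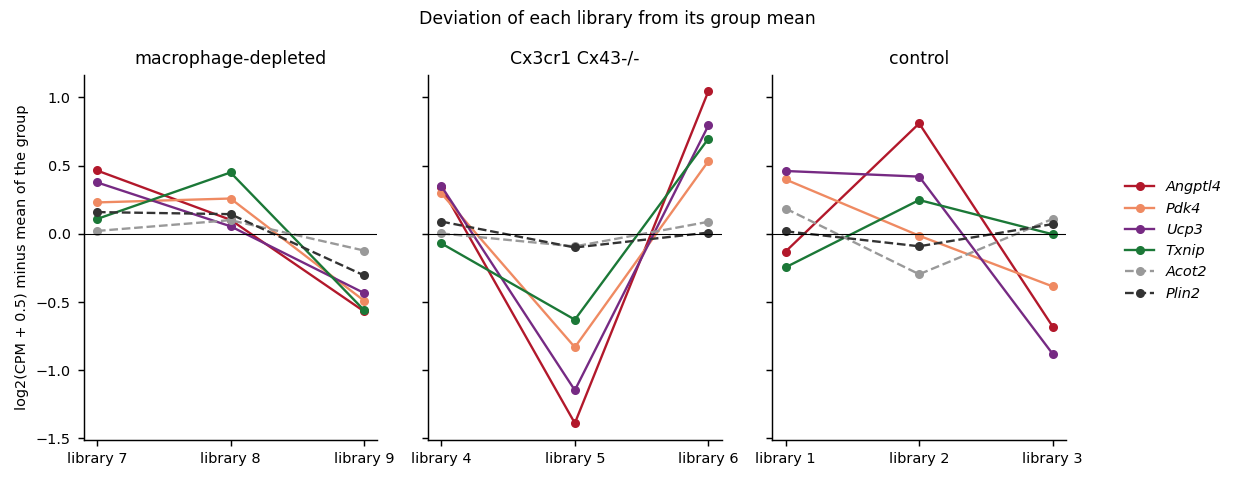
Log2(CPM + 0.5) of 6 genes in each library minus the mean of its group, in macrophage-depleted, Cx3cr1 Cx43-/- and control nodes; lines only join the points of a gene, since replicates have no order. Angptl4, Pdk4, Ucp3 and Txnip dip in library 5 and peak in library 6, while Acot2 and Plin2 stay near 0 there.

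Genes with the most similar pattern were found as those with the smallest root mean square difference of centred log2 values over all 9 libraries. For Angptl4 these included Fam46b (0.46) and Syt12 (0.58). For Pdk4 they were the transcription factor Myc (0.34), Gpr39 (0.36) and Scgb3a1 (0.37). Angptl4 and Pdk4 lay 0.66 apart, farther than either lay from its 3 nearest genes. Plin2 was nearest to Ppp2r2d (0.06), Clic1 (0.07) and Igfbp7 (0.07), Cpt1a to genes that included Sec24d (0.10) and Rraga (0.11), and Ucp2 to Eif4a3 (0.15), Notch4 (0.18) and Pycr1 (0.18). Ucp3 had Ikzf4 (0.40), Gm11627 (0.46) and Cep78 (0.47), Acot1 had Gm15417 (0.18), Dpm3 (0.18) and Etv4 (0.18), and Acot2 had Ppp4c (0.09), 2810002N01Rik (0.09) and Rbms3 (0.09).

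The remaining lists place the 8 genes in their pathways, for macrophage-depleted against control nodes. Of 16 genes for PPARs, RXRs and their cofactors, 10 fell on the deposited scale, where 33.0% of all tested genes did. They included the RXR genes Rxrg (8.14 ± 1.72 against 26.3 ± 0.694 CPM, log2 change -1.65, limma adjusted p = 1.26e-05) and Rxra (-0.93), the oestrogen-related receptor Esrra (-1.39) and the PPAR coactivator and phosphatase Lpin1 (-1.17). Among the receptors, Ppard fell (-1.04, limma adjusted p = 0.0181), while Ppara (-0.42) and Pparg (0.57) did not pass. The list's median was -0.75 beside -0.49 for all tested genes. With median-of-ratios scaling 5 were lower (Rxra, Rxrg, Lpin1, Ncoa2 and Esrra) and 2 higher (Pparg and Nrip1), where 13.0% and 13.1% of all tested genes were.

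Of 24 other PPAR targets tested, 8 fell on the deposited scale, a share close to the 33.0% of all tested genes, with a median of -0.40 beside -0.49 for all genes. Those named by p were the peroxisomal enzyme Ehhadh (1.78 ± 1.74 against 6.24 ± 1.27 CPM, log2 change -1.99), the medium-chain dehydrogenase Acadm (-0.90), the lipoprotein receptor Vldlr (-0.88) and the fatty acid transporter Slc27a1 (-0.79). After setting a common total, 3 rose, Fabp4 and Pnpla2 among them, and 6 fell, where 8.79% and 19.6% of all tested genes did. With median-of-ratios scaling 6 rose, now also Decr1, Cd36 and Lpl, and 3 fell (Acadm, Ehhadh and Vldlr), beside 13.1% and 13.0% of all tested genes.

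Family relatives of the 8 genes gave 3 rises and 9 falls among 23 tested, where 3.23% of all tested genes rose and 33.0% fell. Those with the smallest p fell, namely Pdk2, the phosphatases Pdp1 (-1.17) and Pdp2 (-1.38) that oppose the kinases, and Angptl2 (-1.15). The rises were those of Angptl7 (0.81), Acot9 (0.84) and the droplet coat Plin4 (0.77). All 3 were also higher under both other scalings. The 4 relatives named for their fall were lower under both.

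Fasting, FOXO and glucocorticoid genes included many rises. Of 15 tested, 7 rose and 1 fell, where 3.23% of all tested genes rose and 33.0% fell, with a median of 0.68 beside -0.49 for all genes. The list was chosen with results of these data known, so its direction is not independent evidence. Fkbp5, a co-chaperone of the glucocorticoid receptor, stood at 98.2, 81.5 and 36.4 CPM in macrophage-depleted libraries and at 11.03 to 13.7 CPM in control libraries (log2 change 2.37, SE 0.30, limma adjusted p = 4.25e-06). Zbtb16, another glucocorticoid-induced gene, rose by 2.57, the cell cycle inhibitor Cdkn1a by 1.14 and Txnip by 1.38 on the log2 scale. Per1, Tsc22d3 and Sgk1 rose as well, and the muscle ubiquitin ligase gene Trim63 fell. Under both other scalings 10 rose, where 8.79% (common total) and 13.1% (median of ratios) of all tested genes did, and Trim63 was lower after setting a common total only.

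Hypoxia-inducible factor targets were next. Of 11 tested, 4 fell on the deposited scale, a share close to the 33.0% of all tested genes, namely Egln3 (-1.94), Vegfa (-1.52), Adm (-1.15) and Higd1a (-0.85), with a median of -0.49 beside -0.49 for all genes. With median-of-ratios scaling 2 were lower (Vegfa and Egln3) and 3 higher (Slc2a1, Bnip3 and Ldha), beside 13.0% and 13.1% of all tested genes.

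**Figure D5:**
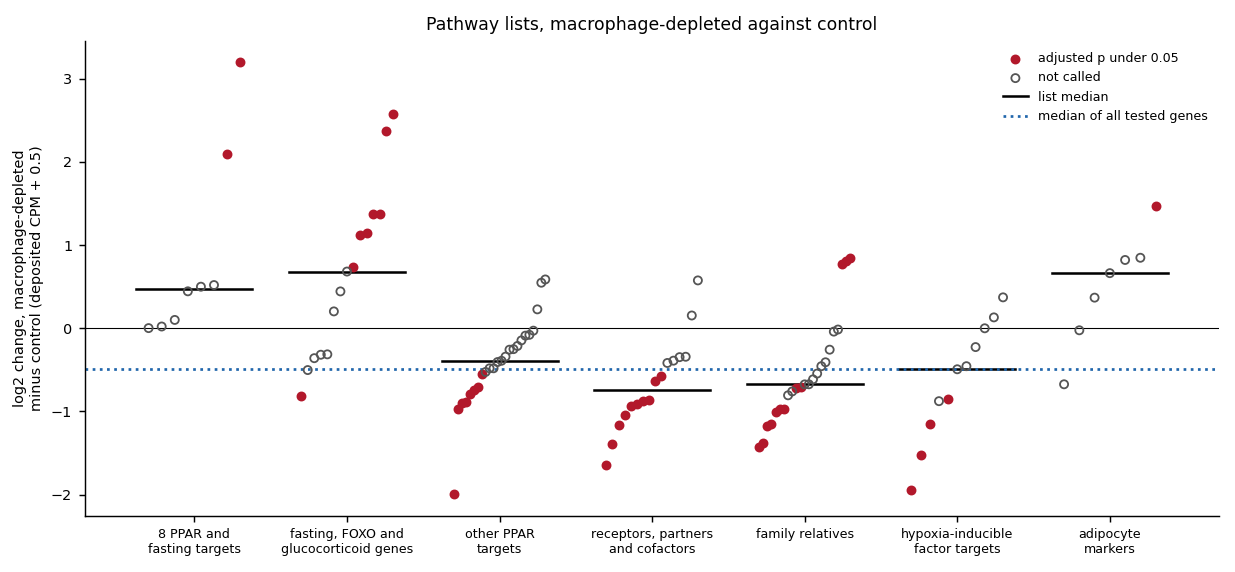
Log2 change of each tested gene in macrophage-depleted minus control nodes on the deposited scale, by list (filled points: limma adjusted p under 0.05), with the list's median as a line and the median of all tested genes as a dotted line. The list medians run from 0.68 (fasting, FOXO and glucocorticoid genes) to -0.75 (receptors, partners and cofactors).

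In Cx3cr1 Cx43-/- against control nodes 0 genes of these lists were called by limma. At an unadjusted p under 0.05 the fasting list had 3 of 15 higher and the other 4 lists had 0. Of all 12925 tested genes, 191 were under it in either direction, and 3 of 10 resident macrophage markers were higher. Zbtb16 gave a log2 change of 1.27 (limma unadjusted p = 0.000744) and Txnip 0.99 (limma unadjusted p = 0.002). Txnip stood at 400, 271 and 680 CPM in Cx3cr1 Cx43-/- and at 177, 250 and 210 CPM in control libraries, without overlap.

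Adipocytes use several of these genes, so their markers were read beside the rise. The sum of 8 adipocyte markers was 56.6, 273 and 64.9 CPM in macrophage-depleted, 28.5, 90.9 and 89.2 CPM in Cx3cr1 Cx43-/- and 86.7, 43.7 and 60.3 CPM in control libraries. It stood apart in library 8, and 0 of the 8 were at 0 in a whole group. On the deposited scale 1 of 7 tested was called higher (Adig, 1.47), where 3.23% of all tested genes were. Under both other scalings 2 of 7 were, where 8.79% (common total) and 13.1% (median of ratios) of all tested genes were. The median log2 change of the 7 was 0.66 beside -0.49 for all tested genes. Adipoq stood at 0.66, Cidec at 0.82, Cfd at 0.85 and Lipe at 0.37, while Plin1 (-0.67) and Retn (-0.02) were lower. None of these was called on the deposited scale. Leptin (Lep), too low to be tested, stayed at 0.37 CPM or less in every library. Of the brown fat genes, Ucp1 was at 0 in 3 of 3 macrophage-depleted, 2 of 3 Cx3cr1 Cx43-/- and 2 of 3 control libraries, and Cidea stood at 12.03 to 17.8 CPM in macrophage-depleted, 13.1 to 14.6 CPM in Cx3cr1 Cx43-/- and 12.4 to 16.2 CPM in control libraries. The part of adipocytes in the rise was not tested. Leaving out library 8 cannot test it, because the other macrophage-depleted libraries also held adipocyte markers (56.6 and 64.9 CPM). Without library 8 the log2 change was 3.14 for Angptl4 (limma adjusted p = 0.000329) and 1.97 for Pdk4 (limma adjusted p = 0.000501).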

How the data were processed

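The authors deposited a table of CPM with 2 decimals that covers 34198 symbols and 9 libraries, and its columns were matched to samples by name. The submitters' processing notes name HTSeq 0.6.0, STAR 2.3.0, the mm9 build and edgeR without saying how each was used. Total RNA was made into strand-directional libraries, per the labels' protocols. Low CPM values fitted steps of 0.0154 to 0.0192 CPM, taken as the worth of a single read. In each library this was the largest of 14 or 15 step ranges that fitted.

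All 9 libraries entered a single linear model of log2(CPM + 0.5) with trended empirical Bayes variance in limma 3.58.1 (R 4.3.3), with 3 two-sided contrasts. A gene was tested if 3 or more libraries reached 1 CPM (12925 genes), and calls are at a Benjamini-Hochberg adjusted p under 0.05. Log2 changes carry that added 0.5 CPM, so they understate changes of low genes. The fit was tested on simulated data. The members, lists and tests were chosen with earlier results of these data known. Named are the 8 genes, up to 4 genes of each other list with the smallest p in macrophage-depleted against control nodes, ratio partners, and the 3 genes nearest to each of the 8 in pattern. Other genes were named after their values were seen, and a few that the rule picked are not reported here. Exon lengths and shared windows come from GENCODE M21, another build than the authors'. The alternatives changed the scaling (common total, median of ratios, quantile), the pseudocount (0.1 or 2), the filter (none, or a mean of at least 5 CPM), the libraries fitted (those of 2 groups) and the variance model (quality weights, robust empirical Bayes). Others were thresholds of 0.01 and 0.1, each library left out, and, added after seeing the data, voom on reads worked out from the CPM steps. Figures were drawn with matplotlib 3.10.9.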

Additional observations from a re-analysis of the deposited data

How the results depend on the processing

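Angptl4 and Pdk4 were called higher in macrophage-depleted than in control and in Cx3cr1 Cx43-/- nodes under every scaling, filter, pseudocount and weighting run and without each library in turn (log2 changes against control 2.78 to 3.66 and 1.91 to 2.59, limma adjusted p up to 0.0117 and 0.00972). Against control, the number of the 8 genes called higher was 6 with median-of-ratios scaling, 5 with quantile normalization and 4 with library quality weights, and 2 to 3 without single libraries. Against Cx3cr1 Cx43-/- nodes it was 4 with a common total, 5 with median-of-ratios scaling, 5 with quantile normalization and 4 with quality weights, and 2 to 3 without single libraries. There, 2 genes (Cpt1a and Ucp2) were called lower with quality weights, and 0 to 2 without single libraries, the 2 being Cpt1a and Ucp2 without macrophage-depleted library 7. Calls over all genes moved with the scaling too, so the counts are no result about the 8 genes alone. Against control, 3.23% of tested genes were called higher on the deposited scale, 8.79% with a common total and 13.1% with median-of-ratios scaling. Of 12925 tested genes, limma put 4865 (quantile) and 6542 (quality weights) under an unadjusted p of 0.05 against control, in either direction. On the deposited scale it put 6055 there. Against Cx3cr1 Cx43-/- nodes the quantile and quality-weight counts were 4929 and 8161, with 7821 without library 7 and 6834 on the deposited scale. Counts in either direction do not give the share called higher. The counts of the 8 under these settings therefore cannot be set against such a share. In Cx3cr1 Cx43-/- against control nodes 0 were called in either direction under any of these settings, with the lowest limma adjusted p at 0.916. The cause of these moves was not tested.

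Uncalled changes turned sign as follows. Against control in macrophage-depleted nodes, Cpt1a was -0.19 and Ucp2 -0.0702 with quality weights, and Cpt1a was -0.00289 with voom. Leaving out single libraries gave Cpt1a -0.15 to 0.21, Ucp2 -0.37 to 0.41 and Acot2 -0.0481 to 0.19. In Cx3cr1 Cx43-/- against control nodes, leaving out single libraries gave Ucp3 -0.12 to 0.89, Acot1 -0.24 to 0.12 and Acot2 -0.0201 to 0.22. Between macrophage-depleted and Cx3cr1 Cx43-/- nodes, Cpt1a was 0.16 with median-of-ratios scaling and 0.0449 with quantile normalization, Ucp2 0.0171 with median-of-ratios scaling and Ucp3 -0.024 with quality weights. Acot2 was 0.35 with a common total, 0.53 with median-of-ratios scaling, 0.46 with quantile normalization and 0.013 with quality weights there. Leaving out single libraries gave Ucp3 -0.45 to 0.53 and Acot2 -0.0785 to 0.0331. The differences of the 6 ratios moved by less than the spread between libraries under each alternative. With 3 libraries a group, leaving out a single library always moves a group mean by less than the group's SD. Those settings therefore could not have given another outcome. Setting a common total or using median-of-ratios scaling changes such ratios only through the added CPM. No conclusion about the ratios is drawn from these settings.

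With 3 libraries a group, an exact test of a single ratio cannot go below 0.1. No paired analysis was possible because the replicate numbers run from 1 to 9 over the series and no number is shared between groups.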
